A study of Mus musculus with 8 samples.

Results

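The DNA replication machinery was followed here as 34 genes out of 32780 that could be matched to a name: the helicase genes Mcm2 to Mcm7, Mcm10, Cdc45 and Gins1 to Gins4, the origin genes Orc1, Orc6, Cdc6 and Cdt1, the polymerase genes Pola1, Pola2, Prim1, Prim2, Pold1 and Pole, the sliding clamp Pcna with its loader Rfc1 to Rfc5, the strand-joining genes Fen1 and Lig1, the nucleotide-supply genes Rrm1 and Rrm2, and the chromatin assembly genes Chaf1a and Chaf1b. Members were a fixed list of symbols, joined to the transcript tables through GENCODE M21 gene names, with estimated counts and TPM summed over the transcripts of each gene. All 34 were found, and all 34 passed the filter on low counts. The series holds 8 total RNA libraries of TC1, a mouse embryonic stem cell line, all with a wild-type genotype. In 4 of them the cells had been differentiated for 10 days, and in the other 4 they were undifferentiated embryonic stem cells at day 0. Its title concerns cohesin dynamics during differentiation, and the one comparison is day 10 against day 0. The labels name no agent of the differentiation protocol and do not say whether the 4 libraries per day are separate cultures, so every p-value measures the spread between these libraries, which may be technical.

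Replication starts where the origin recognition complex, Cdc6 and Cdt1 load the ring-shaped Mcm2-7 complex onto DNA. Cdc45 and the GINS complex then join that ring to form the active helicase, DNA polymerase alpha with primase lays down primers, replication factor C loads the Pcna clamp, and polymerases delta and epsilon extend the strands, after which Fen1 and Lig1 join the lagging-strand fragments and chromatin assembly factor 1 places histones on the new DNA. Mouse embryonic stem cells divide rapidly and spend much of their cycle in S phase, and many genes of this machinery are known targets of E2F transcription factors.

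Promoter sequence is shown first, for members chosen by how their RNA moved and by whether the window held an E2F element, so that both can be set beside the levels that follow. The windows are RefSeq's on GRCm38.p6, from 250 bases before to 50 bases after the annotated start, and 27 of the 34 members matched one (Mcm4, Gins1, Gins2, Gins4, Prim2, Pole and Rfc2 did not). Where a member had more than 1 window, as 3 did, the first was used. Orc1 (chr4:108579204-108579503, plus strand) and Pold1 (chr7:44548766-44549065, minus strand) had the lowest log2 changes among members with an E2F element. Rfc3 (chr5:151651159-151651458, minus strand) had the highest of that kind, and Mcm10 (chr2:5012742-5013041, minus strand) the lowest among members without one. Mcm6 (chr1:128359656-128359955, minus strand) was added after the matches were seen because its window held the most. Capitals mark each match to TTTCCCGC, TTTCGCGC, TTTGCCGC or TTTGGCGC on either strand, where matches may overlap each other. A match cut by the edge of a window was not counted, and the Mcm10 window ends in all but the last letter of TTTGGCGC.
Orc1: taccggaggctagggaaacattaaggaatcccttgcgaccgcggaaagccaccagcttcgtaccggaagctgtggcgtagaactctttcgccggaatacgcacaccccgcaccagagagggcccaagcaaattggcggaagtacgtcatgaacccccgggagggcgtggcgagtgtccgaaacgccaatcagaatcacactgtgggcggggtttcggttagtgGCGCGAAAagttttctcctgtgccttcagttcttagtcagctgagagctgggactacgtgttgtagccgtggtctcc
Pold1: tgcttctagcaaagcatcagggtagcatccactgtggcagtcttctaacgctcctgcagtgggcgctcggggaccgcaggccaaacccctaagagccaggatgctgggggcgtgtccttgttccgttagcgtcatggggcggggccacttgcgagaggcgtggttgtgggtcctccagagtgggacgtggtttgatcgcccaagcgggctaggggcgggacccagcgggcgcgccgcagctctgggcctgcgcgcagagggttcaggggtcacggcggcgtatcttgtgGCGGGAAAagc
Rfc3: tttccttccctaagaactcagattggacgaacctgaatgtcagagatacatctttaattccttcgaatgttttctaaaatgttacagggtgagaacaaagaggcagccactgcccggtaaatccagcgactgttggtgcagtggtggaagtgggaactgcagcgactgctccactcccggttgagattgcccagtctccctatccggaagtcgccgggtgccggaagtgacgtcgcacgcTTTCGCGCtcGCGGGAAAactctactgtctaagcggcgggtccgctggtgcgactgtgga
Mcm10: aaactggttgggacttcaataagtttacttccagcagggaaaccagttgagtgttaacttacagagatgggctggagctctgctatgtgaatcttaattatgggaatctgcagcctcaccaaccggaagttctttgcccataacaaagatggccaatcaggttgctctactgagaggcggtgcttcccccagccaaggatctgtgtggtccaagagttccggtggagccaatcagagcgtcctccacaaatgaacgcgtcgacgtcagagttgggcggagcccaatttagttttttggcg
Mcm6: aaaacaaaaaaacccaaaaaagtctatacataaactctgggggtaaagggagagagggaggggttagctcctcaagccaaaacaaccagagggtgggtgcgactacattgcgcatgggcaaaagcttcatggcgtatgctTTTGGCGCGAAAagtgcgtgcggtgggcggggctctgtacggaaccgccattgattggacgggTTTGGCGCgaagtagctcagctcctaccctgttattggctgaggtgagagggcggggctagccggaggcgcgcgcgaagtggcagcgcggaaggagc

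With positions counted from 0 at the annotated start, the Orc1 match lay at -27 to -20, and the pair in Rfc3 lay at -10 to -3 and 0 to 7, almost back to back. In Mcm6 the matches at -110 to -103 and -106 to -99 overlap on opposite strands, and the other lies at -47 to -40. At least 1 of these E2F forms occurred in 11 of the 27 member windows (40.7%), against 626 of all 27025 promoter windows of that length (2.32%). The 11 were those of Mcm3, Mcm5, Mcm6, Mcm7, Gins3, Orc1, Cdc6, Cdt1, Pola1, Pold1 and Rfc3, so they came from the helicase, origin, polymerase and clamp-loader groups. The CCAAT box, searched as CCAAT on both strands, was in 18 of 27 windows (66.7%), against 37.9% of all. The CHR element, searched as TTTGAA on both strands, was in 4 of 27 (14.8%), against 18.1%. The median log2 change, day 10 over day 0, was -1.42 for the 11 members with an E2F form (-2.51 to -0.33) and -1.30 for the 16 without (-2.31 to -0.17), so both kinds covered nearly the same range. The low end of the 16 was Mcm10, whose window ends in an incomplete form. A match here describes letters in a window and not a bound site.

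All 34 replication genes were lower at day 10 than at day 0 by edgeR's quasi-likelihood test (adjusted p at most 0.0154), although the sign of Rrm1, Rfc3 and Chaf1a changed with the handling of transcript length described further on. Over all 15097 genes tested, 39.4% were called lower and 42.7% higher, 82.1% in either direction. The members' median log2 change was -1.32, against 0.06 for all genes tested, and 15.5% of all genes had a change at or below that median. A change of more than 2-fold downward was called for 27 of 34 members, against 17.3% of genes. In 33 of 34 members the 4 day 10 libraries all lay below the 4 day 0 libraries in CPM (counts scaled to a library of 1000000, with TMM), against 37.2% of genes, and the exception was Rfc3. Together the 34 genes took 0.260 to 0.287% of gene counts in the day 10 libraries and 0.583 to 0.631% in the day 0 libraries. In bulk RNA, fewer cells expressing these genes and less RNA per cell cannot be told apart.

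**Figure D1:**
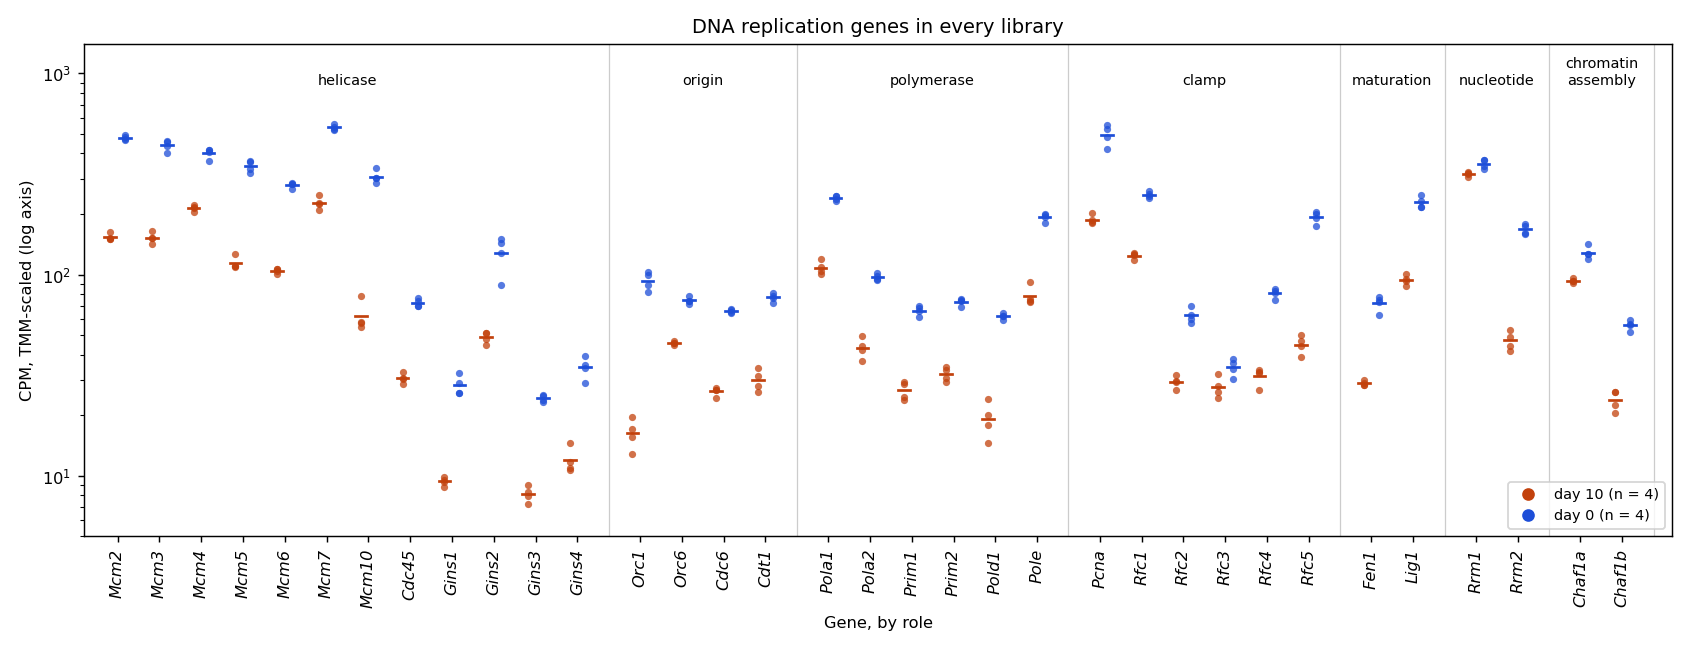
CPM (TMM-scaled, log axis) of each replication gene in the 4 day 10 libraries and the 4 day 0 libraries, in groups by role, with bars at the mean. Day 10 points lie below day 0 points in every gene but Rfc3, where 24.3 to 32.2 CPM at day 10 overlaps 30.1 to 38.2 CPM at day 0.

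Depth was similar between the days, with 13525255 to 17843651 estimated counts per day 10 library and 11242568 to 15808039 per day 0 library, and mitochondrial genes took 1.55 to 2.15% of counts at day 10 and 2.11 to 2.50% at day 0. Across genes, log expression of libraries correlated at 0.979 to 0.989 among those of day 10, at 0.987 to 0.991 among those of day 0, and at 0.701 to 0.735 from day 10 to day 0. The labels call day 10 only differentiated cells, and its markers were of several kinds. All 10 stem cell markers were called lower at day 10 on counts, with a summed level of 127 to 195 TPM (a per-length level that sums to 1000000 in each library) against 4971 to 5613 TPM at day 0. Klf4 changed least of them. Its log2 change was -0.19 on counts, where its CPM overlapped between the days, and 0.24 on TPM. Cardiomyocyte markers summed to 454 to 734 TPM at day 10, against 28.1 to 34.1 TPM at day 0 (10 of 10 tested higher). Fibroblast markers summed to 3122 to 5130 TPM at day 10, against 57.8 to 60.9 TPM at day 0 (7 of 8 higher). Endothelial markers (6 of 6 higher) summed to 227 to 279 TPM at day 10, against 18.7 to 25.8 TPM at day 0. Blood markers (5 of 5 tested higher) summed to 161 to 246 TPM at day 10, against 1.08 to 2.06 TPM at day 0, and endoderm markers (5 of 5 higher) to 474 to 1380 TPM at day 10, against 0.297 to 1.43 TPM at day 0. Cd93, Hbb-bt and Alb were at 0 in all day 0 libraries. Beside these counts, 39.4% of all genes tested were called lower and 42.7% higher. The cardiomyocyte list held 11 genes and the blood list 7, and those not tested failed the filter on low counts. Several markers, such as Tnnt2 (34.9 CPM at day 10 and 0.08 CPM at day 0), could pass that filter only through day 10. For those, higher was the only call open. These marker levels differed between the same libraries as the replication genes, and their part in the results below was not tested.

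Helicase genes were the largest group. All 12 were lower, 11 of them by more than 2-fold, with a median log2 change of -1.53 (-2.31 to -0.90). Mcm2, a subunit of the ring, had 150.8, 163, 150.7 and 152 CPM in day 10 libraries 1 to 4, against 492, 465, 473 and 484 CPM in day 0 libraries 1 to 4. Within each day the libraries lay close together, and the days were far apart (log2 -1.64 ± 0.06, SE, adjusted p = 5.74e-12, edgeR). Mcm7, the most abundant helicase gene in CPM, had 209, 249, 228 and 225 CPM at day 10, against 520.5, 529, 544 and 560 CPM at day 0 (log2 -1.24 ± 0.06, adjusted p = 3.23e-10, edgeR). On counts with TMM scaling Mcm4 kept the most of its day 0 level of the ring subunits, with 222, 204, 214 and 217 CPM at day 10, against 365, 405, 418 and 416 CPM at day 0. Its groups did not overlap, but its log2 change of -0.90 ± 0.06 was less than 2-fold, so that 53.4% of the day 0 level remained where Mcm2 kept 32.2%. Mcm3, Mcm5 and Mcm6 kept 34.7, 32.9 and 37.5%. With the length trend removed, Mcm4 was at -1.30 and Mcm7 at -1.24, so Mcm7 kept the most there.

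Mcm10, which helps the assembled helicase start to move, changed most in this group. Its libraries had 57.1, 78.2, 58.0 and 55.0 CPM at day 10, against 285, 340.1, 301 and 301 CPM at day 0. Day 10 library 2 stood above its 3 neighbours, yet far below every day 0 library (log2 -2.31 ± 0.11, adjusted p = 6.57e-10, edgeR), and 20.2% of the day 0 level remained. Cdc45, the helicase subunit that joins the ring at firing, averaged 30.6 ± 1.77 CPM at day 10 and 72.5 ± 3.27 CPM at day 0 (SD, n = 4 each; log2 -1.25 ± 0.07). The 4 GINS genes, whose products form a single complex with one copy of each, had log2 changes within a narrow band of -1.59 to -1.38. Gins2 was the noisiest of them, with 51.1, 48.0, 44.8 and 51.5 CPM at day 10, against 128, 88.8, 143.2 and 150.7 CPM at day 0. Day 0 library 2 was the low one there, and it still lay above every day 10 library.

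All 4 origin genes were lower, 3 of them by more than 2-fold, with a median log2 change of -1.35, and Orc1 had the lowest log2 change of all 34 members. Orc1 encodes the largest subunit of the origin recognition complex. It had 12.9, 19.6, 15.6 and 17.04 CPM at day 10, against 88.2, 81.6, 98.9 and 102.5 CPM at day 0. Every day 10 library lay far below every day 0 library (log2 -2.51 ± 0.12, adjusted p = 1.97e-10, edgeR). Orc6, the smallest subunit of the same complex, had 45.7, 46.9, 44.8 and 45.8 CPM at day 10, against 73.6, 78.4, 73.7 and 71.7 CPM at day 0. Its groups did not overlap either, but its log2 change was -0.70 ± 0.07 (adjusted p = 1.75e-07, edgeR), less than 2-fold. The loaders moved near the members' median, Cdc6 at -1.33 ± 0.07 and Cdt1 at -1.37 ± 0.09.

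All 6 polymerase genes were lower by more than 2-fold, with a median log2 change of -1.24. Pold1, the catalytic subunit of polymerase delta, had 19.9, 24.1, 14.5 and 17.8 CPM at day 10, against 64.3, 59.6, 62.4 and 61.9 CPM at day 0. It showed the widest spread of any member within day 10 (coefficient of variation 20.99%) and a tight day 0 group (log2 -1.70 ± 0.12, adjusted p = 1.37e-08, edgeR). Pole, the catalytic subunit of polymerase epsilon, averaged 78.6 ± 9.09 CPM at day 10 and 193 ± 8.08 CPM at day 0 (SD, n = 4 each; log2 -1.29 ± 0.08). The polymerase alpha and primase genes Pola1, Pola2, Prim1 and Prim2, which make the primers, lay between -1.32 and -1.15.

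The clamp and its loader were all lower but far from uniform. Pcna, the clamp that tethers polymerases to DNA, had 182, 202, 186 and 180.3 CPM at day 10, against 481, 418, 529 and 555 CPM at day 0 (log2 -1.40 ± 0.08, adjusted p = 1.38e-09, edgeR). Its day 0 libraries were spread over a wider range than its day 10 libraries, with a clear gap between the days. The 5 loader subunits act in one complex, yet their log2 changes ran from -2.10 to -0.33. Rfc5 had 44.1, 50.1, 46.5 and 38.7 CPM at day 10, against 175, 190.3, 199 and 206 CPM at day 0 (log2 -2.10 ± 0.08, adjusted p = 2.27e-11, edgeR). Rfc3 had 32.2, 27.8, 24.3 and 26.1 CPM at day 10, against 34.1, 30.1, 36.3 and 38.2 CPM at day 0. Here the groups overlapped, since day 10 library 1 was above day 0 library 2, and the log2 change was -0.33 ± 0.11 (adjusted p = 0.0108, edgeR). Rfc4 lay near the median at -1.37 ± 0.09. Rfc1, the large subunit, and Rfc2 had log2 changes of -0.999 ± 0.06 and -1.11 ± 0.09, which the test against 2-fold did not call.

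Fen1, the flap nuclease, and Lig1, the ligase of the lagging strand, both lay close to the members' median, at -1.32 ± 0.08 and -1.28 ± 0.07. The 2 subunits of ribonucleotide reductase, which makes deoxynucleotides, came apart. Rrm2, the small subunit, had 44.1, 53.0, 49.2 and 41.8 CPM at day 10, against 158, 160.1, 179 and 175 CPM at day 0 (log2 -1.84 ± 0.08, adjusted p = 6.95e-11, edgeR). Rrm1, the large subunit, had 318, 305, 323 and 320.1 CPM at day 10, against 335, 345, 371 and 372 CPM at day 0. Its groups were close but did not overlap, and 89% of the day 0 level remained (log2 -0.17 ± 0.06, adjusted p = 0.0154, edgeR). Chromatin assembly factor 1 showed the same kind of contrast. Chaf1a, its large subunit, had 90.3, 95.8, 92.5 and 93.1 CPM at day 10, against 142.1, 127, 126 and 120 CPM at day 0 (log2 -0.47 ± 0.07), while Chaf1b, the middle subunit, averaged 23.7 ± 2.83 CPM at day 10 and 56.0 ± 3.11 CPM at day 0 (SD, n = 4 each; log2 -1.24 ± 0.09).

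To ask which members moved apart from the rest, each gene's log2 CPM was taken minus the mean of the other members in the same library and fitted with limma across all genes. By that measure 17 of the 34 members differed between the days, 9 lower and 8 higher, against 88.6% of all genes in either direction, a share below the background, so the count is no result about the members and the sizes are given instead. Lower than the mean of the others were Orc1 (-1.22 ± 0.11, SE), Mcm10 (-1.01 ± 0.10), Rfc5 (-0.79 ± 0.08), Rrm2 (-0.52 ± 0.08), Pold1 (-0.40 ± 0.12), Mcm2 (-0.31 ± 0.07), Mcm5 (-0.28 ± 0.07), Gins1 (-0.25 ± 0.11) and Mcm3 (-0.20 ± 0.07). Higher were Rrm1 (1.20 ± 0.07), Rfc3 (1.03 ± 0.10), Chaf1a (0.89 ± 0.08), Orc6 (0.65 ± 0.08), Mcm4 (0.44 ± 0.08), Rfc1 (0.34 ± 0.08), Rfc2 (0.24 ± 0.09) and Pola1 (0.19 ± 0.08). For 14 of the 17 the call held without each of the 8 libraries in turn. Gins1 lost it without day 10 library 1, 2 or 4 or day 0 library 3 or 4 (adjusted p up to 0.144, limma). Pola1 lost it without day 10 library 3 or 4 or day 0 library 1, 3 or 4 (up to 0.177), and Rfc2 without day 10 library 1 (0.0607). Gins3 and Gins4 gained one without day 10 library 4, and Pola2 without day 10 library 3. With the length trend removed, Gins1 was at 0.27 and Pola1 at -0.56, so these directions turned, and Mcm4 was at 0.04 and no longer called (adjusted p = 0.626, limma). On TPM the calls of Mcm2 (-0.41, adjusted p = 0.0504, limma), Pold1 (-0.21, adjusted p = 0.138, limma) and Pola1 (0.14, adjusted p = 0.21, limma) were lost.

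**Figure D2:**
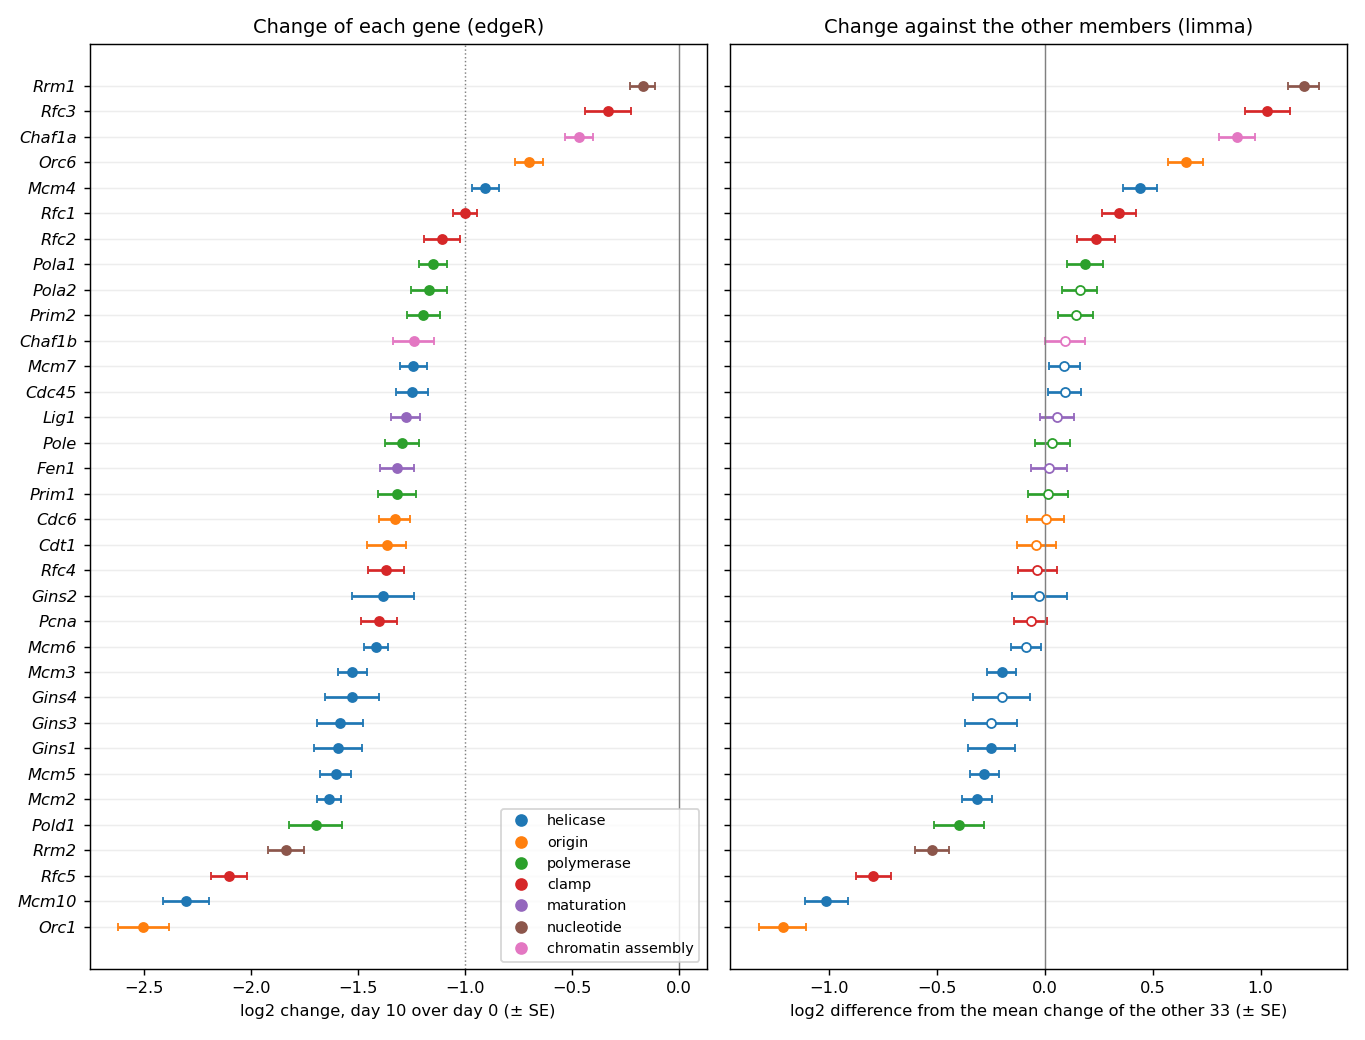
Left, log2 change of each gene, day 10 over day 0, from edgeR; right, log2 difference of that change from the mean of the other 33 members, from limma, with filled points past an adjusted p of 0.05; bars are ± SE and colours give the role. Orc1 (-2.51) and Rrm1 (-0.17) end the order on the left, and every value on the left, on counts, is below 0.

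Within complexes the balance between subunits differed by day, as ratios of per-length levels (TPM) show; these ratios were chosen after the values were seen and carry no test. Rrm1 over Rrm2 was 6.50, 4.82, 6.31 and 6.64 in day 10 libraries 1 to 4, against 1.80, 1.76, 1.81 and 2.02 in the day 0 libraries. Rfc3 over Rfc5 was 1.94, 1.48, 1.44 and 1.73 at day 10, against 0.533, 0.407, 0.461 and 0.494 at day 0. Orc6 over Orc1 was 8.96, 7.44, 7.70 and 7.15 at day 10, against 2.43, 2.61, 2.06 and 1.91 at day 0. In each of these the days were well separated, and for the loader pair the order of the gene sums turned over on this scale. The sums include short forms not classed as protein-coding. Rfc3-207 (503 nucleotides) held 18.7 to 22.4% of Rfc3 counts at day 10 and 10.9 to 15.8% at day 0. Orc6-203 (921 nucleotides) held 32.0 to 37.6% of Orc6 counts at day 10 and 13.3 to 16.1% at day 0. Rrm1-202 (747 nucleotides) held 19.7 to 21.1% of Rrm1 counts at day 10 and 12.2 to 17.7% at day 0. Ratios on protein-coding transcripts alone were not taken. Chaf1a over Chaf1b was 1.74, 2.20, 2.78 and 2.76 at day 10, against 1.49, 1.03, 1.01 and 0.912 at day 0, a narrower gap. Within the Mcm2-7 ring, Mcm4 made up 15.2 ± 0.871% of the summed TPM of the 6 subunits at day 10 and 10.9 ± 1.51% at day 0, and Mcm7 29.6 ± 1.31% at day 10 and 24.6 ± 2.20% at day 0 (SD, n = 4 each). Mcm2 made up 21.1 ± 1.21% at day 10 and 27.1 ± 6.49% at day 0, but 36.4% in day 0 library 1 alone.

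On the TPM scale, which allows levels of different genes to be set side by side, Pcna led on both days with 648 ± 52.6 TPM at day 10 and 1234 ± 147 TPM at day 0, and Gins3 came last with 8.995 ± 0.982 TPM at day 10 and 21.3 ± 2.44 TPM at day 0 (SD, n = 4 each). These levels and ranks are of gene sums over all transcripts, coding or not. Pcna-203, a form of 589 nucleotides not classed as protein-coding, held 53.9 to 54.5% of Pcna counts at day 10. At day 0 it held 40.1 to 53.2%, so the rank of Pcna is not that of its coding RNA alone. At day 10 the order after Pcna was Rrm1 (381 ± 7.86 TPM), Mcm7 (270 ± 26.1 TPM), Mcm2 (192 ± 7.85 TPM) and Mcm4 (138 ± 7.30 TPM), with no overlap between these neighbours. At day 0 it was Mcm2 (473 ± 156 TPM), Mcm7 (420.5 ± 14.5 TPM), Rrm1 (267 ± 22.2 TPM) and Mcm5 (242 ± 22.8 TPM), where Mcm2 and Mcm7 overlapped, as did Rrm1 and Mcm5. The summed level of the 34 genes was 3142 ± 195 TPM at day 10 and 5379 ± 268 TPM at day 0. By role, the helicase genes summed to 1091 ± 71.9 TPM at day 10 and 2165 ± 166 TPM at day 0, and the clamp and loader to 1005 ± 72.9 TPM at day 10 and 1805 ± 142.7 TPM at day 0. Ribonucleotide reductase was the exception, with 445 ± 17.99 TPM at day 10 and 411 ± 26.4 TPM at day 0. That sum includes Rrm1-202, a form of 747 nucleotides not classed as protein-coding. It held 858 to 1124 estimated counts at day 10 and 446 to 1005 at day 0. On protein-coding transcripts alone, both genes of the enzyme were lower at day 10 (edgeR, log2 -0.25 for Rrm1 and -1.78 for Rrm2). Day 0 library 1 had 695 TPM of Mcm2, against 331 to 448 TPM in the other day 0 libraries, although its Mcm2 counts did not stand apart. A transcript of 273 nucleotides, Mcm2-203, held 357 estimated counts in day 0 library 1 and 78.4, 129.6 and 149.5 in day 0 libraries 2 to 4. Short transcripts weigh heavily on the TPM scale, but the part of Mcm2-203 in the Mcm2 level of day 0 library 1 was not tested.

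How transcript length was handled moved the smaller changes. Between the days, TPM shifted the median log2 change of all genes to 0.45, against 0.06 on counts, and of the genes called, 4077 of 11923 were lower on TPM, against 5950 of 12399 on counts. Relative to that shifted median, 33 of the 34 members still lay below it. With limma on log2(TPM + 0.1), 30 members were called lower, against 27% of genes, and 1, Rrm1, was called higher (0.52, adjusted p = 7.43e-05, limma), which is 0.07 above the shifted median. Rfc3 (0.24) and Chaf1a (0.27) had positive values there and Orc6 a value of -0.16, which are -0.21, -0.18 and -0.61 relative to the shifted median, and none of these 3 was called. Only 4 members passed the 2-fold test on TPM, against 27 on counts. That test was set around 0 and not around the shifted median of 0.45. The share of all genes passing it on TPM is not given, so the smaller count is no result about the members. An offset for the average transcript length in edgeR left 31 members called lower, against 37.2% of genes, with Rrm1 at 0.12, Rfc3 at -0.15 and Chaf1a at -0.14, none of them called. Removing the trend of change with gene length left 33 called lower, against 41.5% of genes, with Rfc3 at 0.21 not called. Chaf1a fell more there than on counts, at -0.83, and lay closer to Chaf1b, at -1.16. Counting protein-coding transcripts alone, a setting chosen after the data were seen, left all 34 lower, against 38.6% of genes, and there Rfc3 had a log2 change of -0.73 and Orc6 one of -1.06. The changes of Orc1 (-2.74 to -1.96), Mcm10 (-2.54 to -1.60) and Rfc5 (-2.24 to -1.55) were the 3 largest falls on counts and under each of these 4 alternatives.

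**Figure D3:**
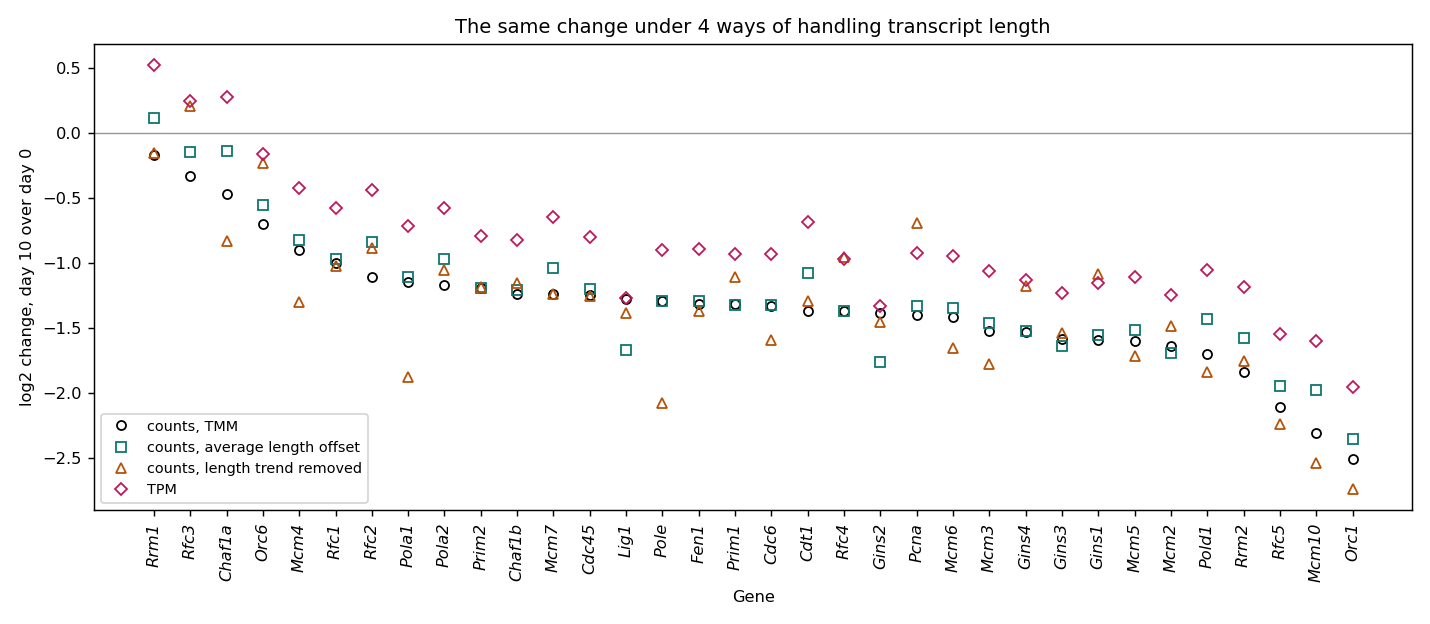
Log2 change of each gene, day 10 over day 0, on counts with TMM scaling, with an average transcript length offset, with the length trend removed, and on TPM, ordered by the first. Values on TPM sit above those on counts, and Rrm1 crosses 0 (0.52 on TPM, -0.17 on counts), as do Rfc3 and Chaf1a.

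Many replication genes have transcripts that GENCODE does not class as protein-coding, such as retained-intron forms, and the share of estimated counts on protein-coding transcripts was lower at day 10 for part of the members. It was testable in 28 members. Of these, 12 had a lower coding share by limma on the log2 ratio of coding to other counts and 0 a higher one (16 and 0 at an unadjusted p under 0.05), against 20.1% of 7489 genes called lower at the adjusted threshold. The fitted change was negative in 26 of 28, against 64.2% of genes, and the median log2 ratio change was -0.81 in the members and -0.31 in all genes. Orc6 had a coding share of 56.7, 61.7, 64.2 and 64.1% at day 10, against 79.5, 83.7, 83.5 and 82.4% at day 0 (adjusted p = 0.00138, limma). Rfc3 had 59.1, 52.0, 56.4 and 45.0% at day 10, against 68.9, 76.5, 74.1 and 72.8% at day 0 (adjusted p = 0.0065, limma). In both genes every day 10 library lay below every day 0 library. Mcm10 averaged 78.1 ± 2.69% at day 10 and 90.2 ± 1.08% at day 0, Chaf1a 79.9 ± 2.14% at day 10 and 89.4 ± 0.325% at day 0, Rrm1 76.0 ± 0.293% at day 10 and 83.5 ± 2.09% at day 0, and Mcm7 88.8 ± 1.39% at day 10 and 94.3 ± 1.22% at day 0 (SD, n = 4 each).

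Those 6 calls held without each library in turn, but with TPM in place of counts Chaf1a was no longer called (log2 ratio change -0.55, adjusted p = 0.0959, limma). With the library number as a block in the fit, 5 members kept a call, and Rrm1 lost it (adjusted p = 0.0677, limma). The other 6, Cdc45, Prim2, Pold1, Rfc2, Lig1 and Chaf1b, each lost the call without at least 3 of the 8 libraries, with adjusted p up to 0.113 (limma), and each of the 8 libraries ended at least 1 of these calls. Leaving out a single library gave 7 to 11 calls among the members, with the fewest, 7, without day 10 library 3, without day 10 library 4 and without day 0 library 3. The share of all genes called with the block or without a library is not given. These smaller counts therefore cannot be set beside a background. For Pcna, of whose counts most lay outside coding transcripts at day 10, the share was 39.5 ± 0.962% at day 10 and 49.2 ± 6.07% at day 0 (SD, n = 4 each), which was not called (adjusted p = 0.0765, limma). Kallisto divides reads among overlapping transcripts, so a share is an estimate, and the depth of intronic reads was not measured separately.

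**Figure D4:**
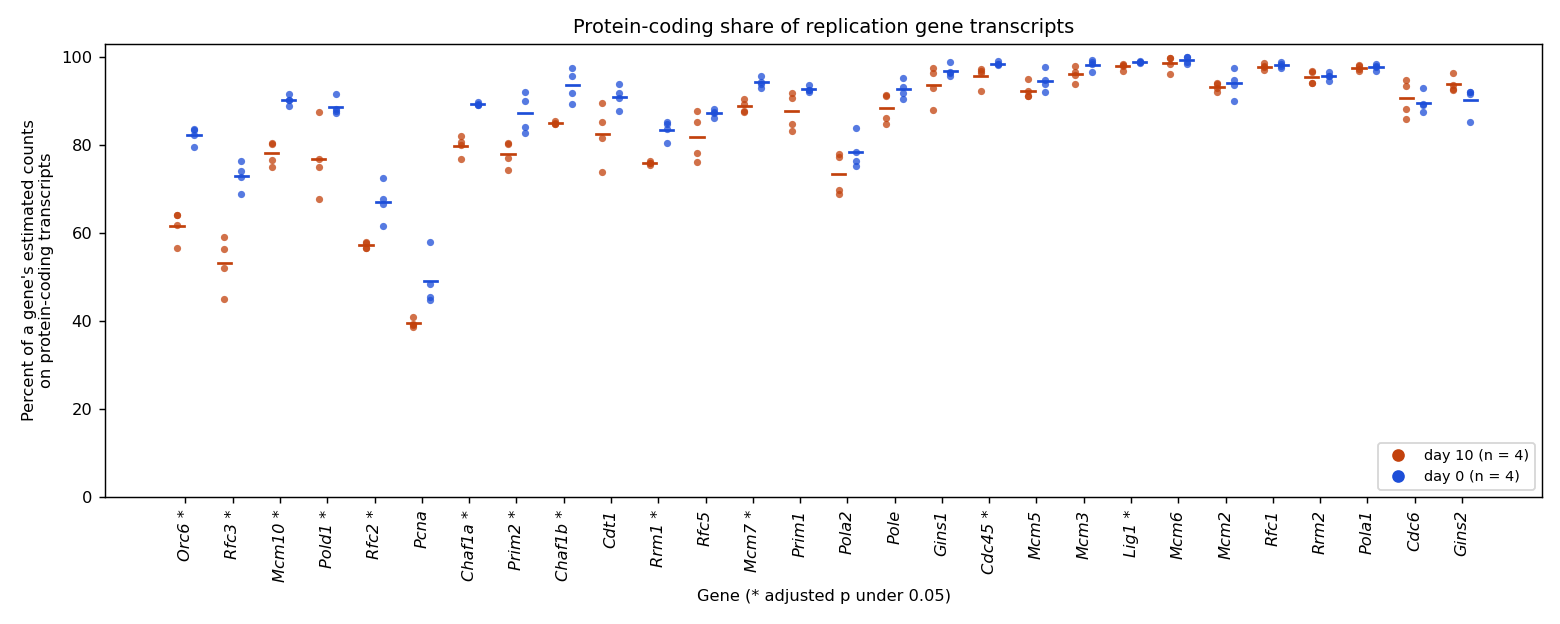
Percent of a gene's estimated counts on protein-coding transcripts in each day 10 and day 0 library (n = 4 each), for the 28 members with enough counts in both classes, ordered by the difference of the means, which are drawn as bars. Asterisks mark an adjusted p under 0.05, and Orc6 (61.7% at day 10, 82.3% at day 0) and Rfc3 (53.1% at day 10, 73.0% at day 0) lead the order.

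Single transcripts show where these shares came from; they were picked after their values were seen and carry no test. Orc6-203, a retained-intron form, held 32.0 to 37.6% of Orc6 counts at day 10 and 13.3 to 16.1% at day 0. Chaf1a-203, also with a retained intron, held 18 to 23.1% at day 10 and 10.1 to 10.8% at day 0. Rrm1-202, annotated to undergo nonsense-mediated decay, held 19.7 to 21.1% at day 10 and 12.2 to 17.7% at day 0. In Mcm10 the main coding form Mcm10-201 held 58.7 to 64.3% at day 10 and 79.9 to 83.0% at day 0, while the longer coding form Mcm10-202 held 12.4 to 20.8% at day 10 and 7.93 to 10.4% at day 0. Some coding forms also differed in share between the days. The short Lig1-206 (944 nucleotides) held 0.720 to 2.46% of Lig1 counts at day 10 and 12 to 18.5% at day 0, and Lig1-201 held 91.1 to 95.5% at day 10 and 74.9 to 81.2% at day 0. Rfc1-206 held 2.76 to 18.3% at day 10 and 29.5 to 38.3% at day 0, and Rfc1-201 held 29.6 to 41.5% at day 10 and 15.7 to 18.9% at day 0. Rrm2-204 held 6.75 to 12.8% at day 10 and at most 0.599% at day 0. In each of these picked transcripts the 2 days did not overlap. In others of the members they did, such as Fen1-201, with 23.1 to 27.7% of Fen1 counts at day 10 and 5.4 to 28% at day 0. The share of all transcripts without overlap is not given.

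Exons of 10 members overlap those of a protein-coding gene on the opposite strand, and whether counting used strand is not given in the sources used here, so reads there cannot be assigned with certainty. The overlap matters most where the partner is more abundant. Eif4a2 had 1251% of the counts of Rfc4 over all libraries and a log2 change of -1.14 beside the -1.37 of Rfc4, Vps35 had 726% of those of Orc6 and a log2 change of 0.00 beside -0.70, and Ufd1 had 136% of those of Cdc45 and -0.15 beside -1.25. In the other 7 (Chaf1a, Rfc2, Fen1, Rfc5, Mcm7, Gins2 and Lig1) each overlapping coding gene had fewer counts than the member.

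Libraries of a day differed a little over the whole machinery. Day 10 library 2 had the highest CPM of its day in 21 of the 34 members, while libraries 3 and 4 had the lowest in 11 and 12. At day 0, library 3 was highest in 14 and library 4 in 10, and libraries 1 and 2 were lowest in 14 each. The median coefficient of variation of the members was 7.31% at day 10 and 5.55% at day 0, small beside the median difference between the days.

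Other genes of the replication pathway moved the same way, though less evenly. Of 57 tested from a list of 58, 48 were lower, 1 was higher and 8 did not pass, beside 39.4% of all genes called lower and 42.7% higher, with a median log2 change of -1.04. Orc2, another origin recognition subunit (-1.82 ± 0.06), Dna2, a nuclease-helicase of fragment processing (-2.08 ± 0.07), Dut, which removes dUTP (-2.05 ± 0.08), and Dbf4, the activator of the Cdc7 kinase (-1.51 ± 0.06), had the smallest p-values. The gene called higher was Poln, a translesion polymerase, at 2.09 ± 0.71 CPM at day 10 and 1.11 ± 0.101 CPM at day 0 (SD, n = 4 each; log2 0.92 ± 0.31, adjusted p = 0.015, edgeR), a call that an offset for transcript length ended. The 8 that did not pass were Orc4, Mcm9, Pold4, Pole3, Polk, Top1, Rrm2b and Dck. Among them Orc4 (-0.09 ± 0.06) and Rrm2b (-0.08 ± 0.12) are relatives or partners of members that were lower, and a p that misses the threshold does not show that they stayed level. All 25 mitosis genes were lower, against the same 39.4% of all genes, with a median of -1.61, among them Aurka, a spindle kinase (-2.05 ± 0.08), Bub1b, a checkpoint protein (-1.80 ± 0.06), Ccnb1, the mitotic cyclin (-1.80 ± 0.07), and Tpx2, a spindle factor (-1.61 ± 0.06).

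Factors of the E2F and Rb network, which control many S phase genes, were mixed. Of 17 tested from a list of 18, 11 were lower, 4 higher and 2 did not pass, beside 39.4% of all genes called lower and 42.7% higher, with a median log2 change of -0.42. Mybl2, a partner of the MuvB complex in proliferating cells, averaged 24.4 ± 1.95 CPM at day 10 and 205.5 ± 13.2 CPM at day 0 (SD, n = 4 each; log2 -3.07 ± 0.08, adjusted p = 3.54e-13, edgeR). E2f4 (-1.87 ± 0.08), E2f8, a repressor of the family (-1.86 ± 0.09), and Tfdp1, the dimer partner of E2F proteins (-0.999 ± 0.06), were lower too. Higher were Rbl2, the pocket protein p130 (1.57 ± 0.12), Rb1 (0.65 ± 0.12) and E2f6, a repressor of the family (0.55 ± 0.09). With the length trend removed, Rb1 was at 0.12 and 3 of the 17 were called higher. On TPM, 6 were called lower and 6 higher, where 27% of all genes were called lower. Of all genes called in either direction, 51.1% were lower with the length trend removed and 34.2% on TPM, and the others were higher. The 6 higher calls on TPM are therefore no result about the network.

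**Figure D5:**
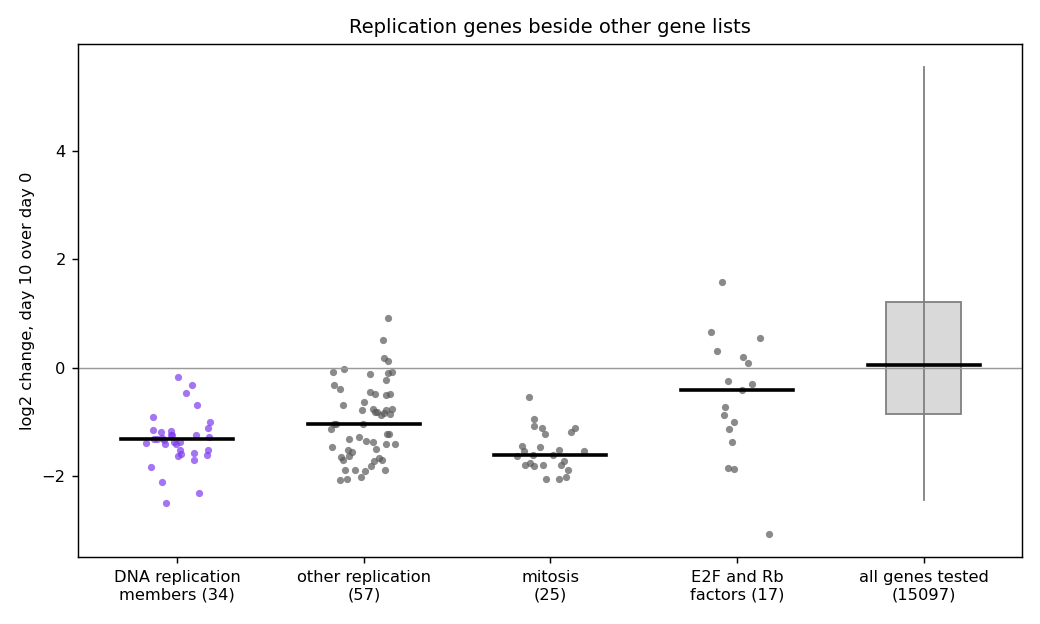
Log2 change, day 10 over day 0, of the 34 replication genes, 57 other replication genes, 25 mitosis genes and 17 E2F and Rb factors (points, with bars at the median of -1.32, -1.04, -1.61 and -0.42), beside all 15097 genes tested (median 0.06, box from the 25th to the 75th percentile at -0.86 and 1.21, line from the 5th to the 95th at -2.44 and 5.54). On counts with TMM scaling, as plotted, all points of the replication and mitosis lists lie below 0.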

How the data were processed

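Total RNA was measured in 8 libraries, 4 at day 10 and 4 at day 0, prepared with the SMART-Seq total RNA kit with ribosomal depletion, per the labels' protocols. Each library has 1 deposited table of 126126 transcripts with their length, effective length, estimated count and TPM, per the file headers. The authors' deposited estimated counts carry no scaling, while their deposited TPM values are per effective length and add up to 1000000. Quantification used kallisto (version given only as 1), and DESeq2 is also named, per the submitters' processing notes. Transcript reference and genome build were not given in the sources used here.

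By identifier, versions dropped, 117992 transcripts (93.6%) had a GENCODE M21 entry, and the remaining ones held 1.15 to 1.23% of counts. Gene sums were rounded and fitted by robust quasi-likelihood in edgeR 4.0.16 (R 4.3.3) after filterByExpr and TMM scaling, with glmTreat for 2-fold and Benjamini-Hochberg adjustment over all genes and a threshold of 0.05. SE was taken as log2 change over the root of F, unsigned. The biological coefficient of variation was 12.5%. Differences from the mean of the other members and coding shares (at least 10 counts in both classes, 0.5 added) were fitted with limma 3.58.1 across all genes. TPM values were tested as log2(TPM + 0.1), which understates changes of low genes. DESeq2 1.42.0, other scalings, no filter, length corrections, a replicate block and each library left out were alternatives. Scripts were tested on simulated data. The members, lists, markers and the rule for named genes (all members; from the other lists the 4 called genes with the smallest p in the main direction and up to 3 in the other) were chosen with earlier results of these data known. No batch or date is in the labels, so batch and day cannot be told apart.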

Additional observations from a re-analysis of the deposited data

Results flagged for a closer look

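In 4 of the 68 groups of 4 libraries formed by the 34 members and the 2 days, a single library stood far from its 3 neighbours by Dixon's test, which chance alone does for about 1 group in 20. All 4 were day 10 library 2, and in all it was the high one. Mcm2 had 162.6 CPM there, against 150.7 to 151.7 CPM in the other day 10 libraries. Mcm5 had 126.3 CPM, against 108.4 to 110.5 CPM. Mcm10 had 78.17 CPM, against 54.98 to 57.99 CPM. Pole had 92.06 CPM, against 72.67 to 75.58 CPM. Each of these values lay below every day 0 library of its gene.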

How the results depend on the processing

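All 34 members were called lower with DESeq2 size factors, no filter, a replicate block, DESeq2's Wald test and each library left out (34 to 34; over 2-fold 26 to 28), and exceptions arose where length was handled otherwise. On TPM with limma, 1 member was higher with a pseudocount of 0.1 and 1 with a pseudocount of 1, and 4 and 3 were past 2-fold. The 2-fold test on TPM made no allowance for the upward shift of the median of all genes on that scale. The log2 change turned positive for Rfc3 (0.24 on TPM, 0.21 with the length trend removed), Rrm1 (0.52 on TPM, 0.12 with the length offset) and Chaf1a (0.27 on TPM). Against the mean of the other members, removing the length trend turned the sign of Gins1 (0.27), Cdc6 (-0.26), Pola1 (-0.56), Pole (-0.76), Pcna (0.66) and Rfc4 (0.39), and TPM that of Lig1 (-0.43). Of the other replication genes, 9 were higher on TPM, 0 with the length offset (edgeR, 1 at an unadjusted p under 0.05) and 4 with the length trend removed, and 6 E2F and Rb factors were lower and 6 higher on TPM. The cause was not tested. Beside these counts, 34.2% of all genes called on TPM were lower, 47.7% with the length offset and 51.1% with the length trend removed. The other calls were higher. The deviations of libraries with the same number, 1 to 4, correlated only weakly between the days (0.03 to 0.05). In all 4 pairs, however, both libraries correlated best with their own number, so a weak pairing cannot be set aside. With the replicate number as a block, 5 members kept a called coding share, against 12 without it, and Rrm1 was among those that lost it (adjusted p = 0.0677, limma), and leaving out single libraries gave 7 to 11. The shares of all genes called in these settings are not given. The block also ended the calls of Gins1 and Pola1 against the mean of the other members. Gins1 and Gins3 had under 10 CPM at day 10, with SE of 0.111 and 0.109 for their log2 changes. The largest SE of the members, 0.145, was that of Gins2, at 48.8 CPM at day 10. Whether depth limits the low genes was not tested.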
